A study of Homo sapiens with 9 samples.

Results

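The genes described here encode fibronectin (FN1), the matricellular proteins tenascin-C (TNC), thrombospondin-1 (THBS1) and SPARC, and 5 laminin chains (LAMA3, LAMA5, LAMB1, LAMB3 and LAMC1). They were taken by gene symbol from a table of RNA-seq read counts of OVCAR4, an established human cell line of ovarian serous adenocarcinoma, and are 9 of its 58735 genes. All 9 had enough counts to be tested, among 16928 genes that did. Cells carried lentiviral shRNA vectors and had been selected with puromycin for 3 days: 3 libraries came from cells with a scrambled shRNA (scr control), 3 from cells with shMPZL3 #1 and 3 from cells with shMPZL3 #2, which both target MPZL3, a predicted cell adhesion molecule. The labels give no other modification. By the study's methods the controls shared viral transduction and puromycin selection with the knockdown cells, and the vector backbone of the MPZL3 hairpins is not stated. The study's methods call the 3 replicates of each condition biological, and the labels do not say what separated them, so the p-values measure the spread between these libraries.

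The extracellular matrix next to an epithelial cell has a sheet-like part, the basement membrane, and a looser fibrillar part. Laminins are trimers of an alpha, a beta and a gamma chain that assemble into the basement membrane. LAMA3 and LAMB3 are chains of laminin-332, the main adhesion laminin of many epithelia, and LAMA5, LAMB1 and LAMC1 form laminin-511. Fibronectin is assembled by integrins on the cell surface into fibrils that other matrix proteins bind, and its synthesis by carcinoma cells is a classical sign of epithelial-to-mesenchymal transition (EMT). Matricellular proteins such as tenascin-C, thrombospondin-1 and SPARC are secreted into the matrix and modulate adhesion more than they bear load.

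The question put to these genes was whether their transcripts differed between MPZL3 knockdown and scr control cells, and whether the shRNAs differed from each other. Total counts ranged from 15040102 to 27835841 per library. Values are given as CPM, the counts of a gene per 1000000 counts of its library, with library sizes scaled by TMM. MPZL3 itself was at 26.1 to 29.8 CPM in scr control, 5.79 to 6.97 CPM with shMPZL3 #1 and 13.2 to 18.5 CPM with shMPZL3 #2, so the targeted transcript was lower in all 6 knockdown libraries and lowest with shMPZL3 #1. As to the identity of the cells, the summed level of 10 ovarian serous carcinoma markers was 4940 to 5150 CPM in scr control, 5080 to 6200 CPM with shMPZL3 #1 and 4960 to 6190 CPM with shMPZL3 #2. The keratins KRT7 and KRT8 made up much of it, with means of 1910 and 1470 CPM in scr control. There PAX8 had 225 CPM, MSLN only 2.85 CPM and WT1 only 0.237 CPM, too little to be tested. The summed level of 8 fibroblast markers was 0.536 to 0.971, 1.5 to 1.61 and 0.659 to 1.53 CPM in the same order, and DCN, POSTN and TCF21 were at 0 in every library. Sums of 6 endothelial markers (8.87 to 11, 8.08 to 9.44 and 13.6 to 17.1 CPM; EMCN at 0) and of 6 blood cell markers (2.01 to 2.53, 2.1 to 3.05 and 2.81 to 4.69 CPM; HBB at 0) were each at most 17.1 CPM, and 6 mesothelial markers summed to 127 to 132, 89.4 to 124 and 116 to 181 CPM, with HP at 0. Of the markers, CD14 rose with both shRNAs (grouped log2 fold change 1.60 ± 0.42, SE, edgeR, adjusted p = 0.0237) at 0.36 to 1.17 CPM on average, CDH5 rose with shMPZL3 #2 (1.05 ± 0.21, adjusted p = 0.00282) and LRRN4 with shMPZL3 #1 (1.51 ± 0.21, adjusted p = 5.95e-05). UPK3B, at a mean of 126 CPM the bulk of the mesothelial sum in scr control, fell by 0.46 with shMPZL3 #1 (SE 0.16, adjusted p = 0.0349). Of 9 carcinoma markers tested, 3 were called higher (KRT7, PAX8 and CLDN4) and 1 lower (MUC16) with shMPZL3 #1. Over all genes these shares were 16.8% and 15.3%. Grouped and with shMPZL3 #2, 0 carcinoma markers were called. Of all genes, 9.36% were called higher and 6.4% lower grouped, and 9.36% and 5.8% with shMPZL3 #2. At an unadjusted p under 0.05 (edgeR), 2 of these markers were higher and 2 lower grouped, and 1 and 1 with shMPZL3 #2. These markers are named after their values were seen, and the part of the marker levels in the results was not tested.

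The 3 promoters shown here belong to FN1 and to the matricellular and the laminin gene with the largest log2 fold change in the grouped comparison, THBS1 and LAMB3. They are given 5′ to 3′ on the gene's strand from the RefSeq promoter table of GRCh38.p14, limited to bases before the start site that lie in no annotated exon. For FN1 the stretch is chr2:215436173-215436252 on the minus strand, and capitals mark TGACGTCA, the palindromic cAMP response element, at bases -183 to -176 from the start. For THBS1 it is chr15:39580829-39581078 on the plus strand, and capitals mark GGAATG, the core word bound by TEAD factors, at -46 to -41. For LAMB3, which has 3 start sites in the table, it is chr1:209651395-209651624 on the minus strand before the start farthest downstream, and capitals mark TGACTCA, the AP-1 word, at -67 to -61. This start lies inside the gene. The windows before the other starts of LAMB3 held no AP-1 word, so the window shown is the one with a match. The shares of all promoters given below are for single windows, whereas LAMB3 had 3. Which start these cells use was not tested.

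FN1: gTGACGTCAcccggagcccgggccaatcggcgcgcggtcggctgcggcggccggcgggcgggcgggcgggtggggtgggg

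THBS1: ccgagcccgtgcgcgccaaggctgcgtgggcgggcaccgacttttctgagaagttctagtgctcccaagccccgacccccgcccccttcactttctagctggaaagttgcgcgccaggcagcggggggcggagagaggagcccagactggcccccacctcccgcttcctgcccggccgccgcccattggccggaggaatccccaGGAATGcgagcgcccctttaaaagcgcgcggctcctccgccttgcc

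LAMB3: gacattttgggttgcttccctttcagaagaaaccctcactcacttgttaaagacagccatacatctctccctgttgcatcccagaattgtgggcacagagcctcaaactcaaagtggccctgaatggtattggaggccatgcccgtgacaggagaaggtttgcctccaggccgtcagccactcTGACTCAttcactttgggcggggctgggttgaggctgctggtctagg

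Searched on both strands in the 250 bases before every start of the table (35116 promoters), TGACGTCA was present in 1.65%, GGAATG in 11.9% and TGACTCA or TGAGTCA in 4.2%. Of the other members, LAMA3 had 2 AP-1 words before a start that lies inside the gene (-125 to -119 and -69 to -63, the second on the opposite strand, where it shares 2 bases with CAGGTG, the E-box word of SNAI and ZEB factors, at -73 to -68), and SPARC had GGAATG at -17 to -12 on the opposite strand. CAGGTG, held by 17.5% of all promoters, was also found before LAMA5 and before the first start of LAMB3. GGGCGG, the GC box, held by 42.6% of all promoters, was found before every member but SPARC, up to 6 times before FN1. Neither CACGTG (6.34% of all promoters) nor TATAAA (10.7%) was found before any member. These are matches of letters and describe the windows only.

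Fibronectin showed the largest differences from scr control of the 9 genes. The transcript of FN1 (ENSG00000115414, minus strand of chromosome 2, 215360440 to 215436172, GRCh38) rose with each shRNA, and it rose further with shMPZL3 #2 than with shMPZL3 #1. In scr control the 3 libraries had 32.4, 45.4 and 52.9 CPM. With shMPZL3 #1 they had 88.3, 166 and 224 CPM. With shMPZL3 #2 they had 292, 485 and 545 CPM. The 3 groups did not overlap: the highest control library stood below the lowest shMPZL3 #1 library, and the highest shMPZL3 #1 library below the lowest shMPZL3 #2 library. The log2 fold change was 2.78 ± 0.49 for the 6 knockdown libraries together (SE; edgeR quasi-likelihood test, Benjamini-Hochberg adjusted p = 0.00312), 1.87 ± 0.27 for shMPZL3 #1 (adjusted p = 1e-04) and 3.34 ± 0.29 for shMPZL3 #2 (adjusted p = 1.46e-06), a 3.66-fold and a 10.1-fold rise. The difference between the shRNAs, 1.47 ± 0.26 on the log2 scale, was itself past the threshold (adjusted p = 0.00135). The transcript of the target gene was lower, and that of FN1 less raised, with shMPZL3 #1: side by side, MPZL3 fell by 2.17 on the log2 scale where FN1 rose by 1.87, and fell by 0.89 where FN1 rose by 3.34. FN1 and TNC are also among the EMT genes that the study selected on these libraries together with those of a second cell line, OVCA433. Their rise here is therefore not independent of that choice. In bulk RNA, more cells that make a transcript and more of it per cell cannot be told apart.

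**Figure D1:**
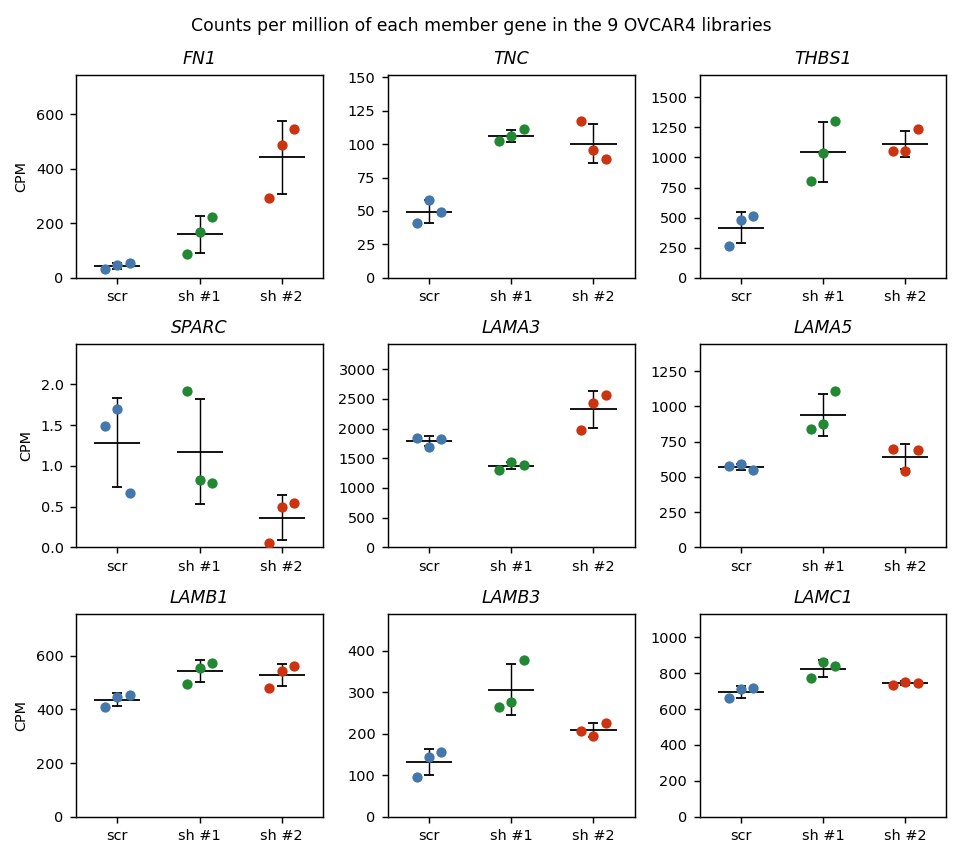
Each panel shows 1 gene in CPM (linear axis from 0), with a point for each of the 9 libraries of scr control (scr), shMPZL3 #1 (sh #1) and shMPZL3 #2 (sh #2); the horizontal line is the group mean and the bar its SD (n = 3). FN1 ascends over 3 groups that do not overlap, TNC and THBS1 stand above control with both shRNAs, whose libraries overlap, and LAMA3 lies below control with shMPZL3 #1 and above it with shMPZL3 #2.

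Among the matricellular genes, TNC and THBS1 rose with both shRNAs, 2.03-fold to 2.67-fold, with no difference between the shRNAs past the threshold, and SPARC stayed near the limit of detection. Tenascin-C is a hexameric glycoprotein that interferes with adhesion to fibronectin and is abundant in tumour stroma. TNC (ENSG00000041982, chromosome 9, 115019578 to 115118257, minus strand) had 40.8, 58.3 and 49.2 CPM in the scr control libraries, 102, 106 and 111 CPM with shMPZL3 #1, and 117, 95.4 and 88.9 CPM with shMPZL3 #2. All 6 knockdown libraries lay above all 3 controls, while the knockdown groups overlapped each other. The log2 fold change was 1.06 ± 0.13 grouped (SE; edgeR, adjusted p = 0.000453), 1.10 ± 0.13 for shMPZL3 #1 (adjusted p = 1.67e-05) and 1.02 ± 0.13 for shMPZL3 #2 (adjusted p = 5.01e-05). The shRNAs differed by -0.08 (95% interval -0.35 to 0.18; adjusted p = 0.708), an interval that holds differences of up to 0.35 in size.

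Thrombospondin-1 is a trimeric glycoprotein that activates latent TGF-beta and inhibits angiogenesis. THBS1 (ENSG00000137801, chromosome 15, 39581079 to 39599466, plus strand) had 266, 476 and 510 CPM in the scr control libraries. It had 802, 1040 and 1300 CPM with shMPZL3 #1 and 1050, 1050 and 1240 CPM with shMPZL3 #2. The control library of replicate 1 was the lowest of all, and no knockdown library reached down to the control range. THBS1 rose by 1.37 ± 0.20 grouped (log2, SE; edgeR, adjusted p = 0.00105), by 1.33 ± 0.20 with shMPZL3 #1 (adjusted p = 0.000111) and by 1.41 ± 0.20 with shMPZL3 #2 (adjusted p = 0.000114), and the shRNAs differed by 0.09 (95% interval -0.32 to 0.5; adjusted p = 0.801). The libraries carry no strand information, and 448 exon bases of THBS1 are shared with the oppositely oriented gene FSIP1, whose 99 counts in the whole table compare with 166085 for THBS1.

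SPARC encodes osteonectin, a collagen-binding protein typical of stromal cells. SPARC (ENSG00000113140, chromosome 5, 151661096 to 151687165, minus strand) had 23, 37 and 10 counts in the scr control libraries, 43, 17 and 17 with shMPZL3 #1, and 1, 10 and 15 with shMPZL3 #2, which is 0.0493 to 1.92 CPM over all. Control and shMPZL3 #1 libraries overlapped, and the shMPZL3 #2 libraries lay below both. No difference passed the test: the log2 fold change was -0.75 ± 0.62 grouped (SE; edgeR, adjusted p = 0.438), -0.14 ± 0.56 for shMPZL3 #1 (adjusted p = 0.876) and -1.78 ± 0.62 for shMPZL3 #2 (adjusted p = 0.0614). The last of these passed the threshold with DESeq2 (adjusted p = 0.025) and in edgeR without the filter on low counts (adjusted p = 0.0122). At these counts a difference as small as those of the laminin chains was not detectable.

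Both chains of laminin-332 among the 9 genes changed, but not together. LAMB3 rose with both shRNAs, whereas LAMA3, the more abundant of the pair in control cells, fell with shMPZL3 #1 and rose with shMPZL3 #2. LAMB3 (ENSG00000196878, chromosome 1, 209614870 to 209652466, minus strand), the beta chain found only in this type of laminin, had 96.7, 143 and 156 CPM in scr control, 265, 278 and 377 CPM with shMPZL3 #1, and 207, 194 and 226 CPM with shMPZL3 #2. The 3 groups did not overlap, with shMPZL3 #1 the highest. The rise was 0.97 ± 0.21 grouped (log2, SE; edgeR, adjusted p = 0.00885), 1.22 ± 0.16 for shMPZL3 #1 (adjusted p = 3.56e-05) and 0.67 ± 0.16 for shMPZL3 #2 (adjusted p = 0.00816). Without the lowest control library, replicate 1, the grouped value was 0.78 and missed the threshold (adjusted p = 0.0723). The shRNAs differed by -0.55 ± 0.16 (adjusted p = 0.0232), a call lost without shMPZL3 #1 replicate 3 (-0.38, adjusted p = 0.127), shMPZL3 #2 replicate 1 (-0.56, adjusted p = 0.0604) or shMPZL3 #2 replicate 2 (-0.50, adjusted p = 0.0583).

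LAMA3 (ENSG00000053747, chromosome 18, 23689443 to 23956222, plus strand) encodes the alpha chain that carries the integrin-binding end of laminin-332. It had 1850, 1690 and 1820 CPM in the scr control libraries, 1310, 1430 and 1380 CPM with shMPZL3 #1, and 1970, 2440 and 2560 CPM with shMPZL3 #2. Every shMPZL3 #1 library lay below, and every shMPZL3 #2 library above, the control range. LAMA3 fell by 0.38 with shMPZL3 #1 (SE 0.10; edgeR, adjusted p = 0.0107) and rose by 0.38 with shMPZL3 #2 (SE 0.10; adjusted p = 0.0205), on the log2 scale, and the shRNAs differed by 0.76 ± 0.10 (adjusted p = 0.000156). Grouping both shRNAs hid this, at 0.05 ± 0.20 (adjusted p = 0.896). The rise with shMPZL3 #2 was the less firm of the pair: it missed the threshold without scr control replicate 2 (0.34, adjusted p = 0.107), scr control replicate 3 (0.38, adjusted p = 0.0619), shMPZL3 #2 replicate 2 (0.34, adjusted p = 0.0524) or shMPZL3 #2 replicate 3 (0.32, adjusted p = 0.116).

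Set per deposited gene length, the LAMB3 level stood at 0.163, 0.265 and 0.268 of the LAMA3 level in the scr control libraries. It stood at 0.636, 0.608 and 0.853 with shMPZL3 #1, and at 0.329, 0.248 and 0.276 with shMPZL3 #2. The ratio with shMPZL3 #1 was above that of every other library, and with shMPZL3 #2 it overlapped control. Among the laminin-511 chains, LAMB1 was at 0.643 to 0.654 of LAMC1 in scr control, 0.664 to 0.707 with shMPZL3 #1 and 0.678 to 0.780 with shMPZL3 #2. LAMA5 was at 0.448 to 0.517 of LAMC1 in scr control, at 0.597 to 0.778 with shMPZL3 #1, above every other library, and at 0.424 to 0.560 with shMPZL3 #2. These ratios are a description with no test.

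**Figure D2:**
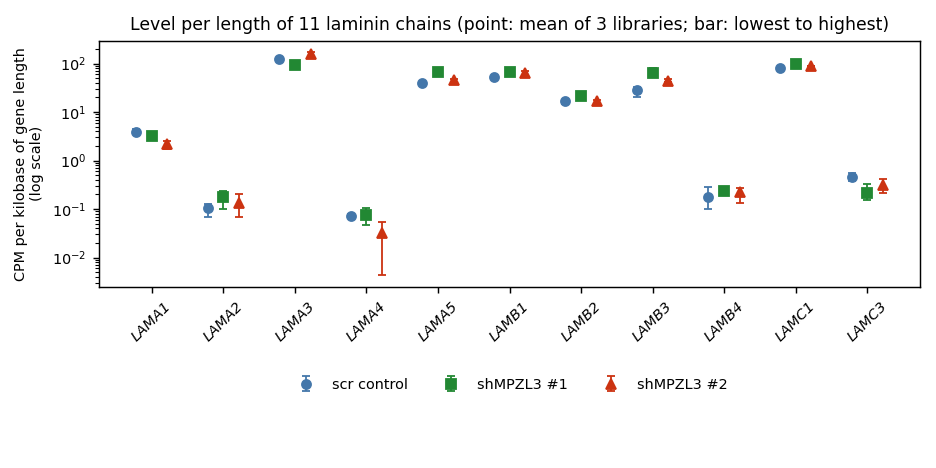
The level of 11 laminin chain genes is plotted in CPM per kilobase of gene length on a log axis, as the mean of 3 libraries with a bar from the lowest to the highest, for scr control, shMPZL3 #1 and shMPZL3 #2. LAMA3, LAMA5, LAMB1, LAMB3 and LAMC1 stand between 28.1 and 158, LAMB2 between 16.6 and 21.7, LAMA1 at or under 3.84, and LAMA2, LAMA4, LAMB4 and LAMC3 under 0.5.

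The chains of laminin-511 changed less. LAMA5 (ENSG00000130702, chromosome 20, 62307955 to 62367312, minus strand), its alpha chain, had 579, 588 and 546 CPM in scr control, 839, 873 and 1110 CPM with shMPZL3 #1, and 698, 543 and 691 CPM with shMPZL3 #2. The shMPZL3 #1 libraries were above all others, and shMPZL3 #2 replicate 2 lay just below the lowest control library. LAMA5 rose by 0.72 ± 0.12 with shMPZL3 #1 (log2, SE; edgeR, adjusted p = 0.000294). With shMPZL3 #2 the log2 fold change was 0.17 ± 0.12 (adjusted p = 0.362). For the 6 knockdown libraries together it was 0.47 ± 0.18 (adjusted p = 0.0823), and the shRNAs differed by -0.55 ± 0.12 (adjusted p = 0.00559). The grouped value passed the threshold without shMPZL3 #2 replicate 2 (0.56, adjusted p = 0.0228) and with DESeq2 (0.47, adjusted p = 0.0454). LAMA5 shares 244 exon bases with ADRM1 on the opposite strand, a gene with 19518 counts over all libraries against 134894 for LAMA5, so some reads of that stretch cannot be assigned.

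LAMB1 (ENSG00000091136, chromosome 7, 107923799 to 108003255, minus strand), the beta chain of laminin-511, had 410, 445 and 454 CPM in scr control, 496, 554 and 574 CPM with shMPZL3 #1, and 481, 541 and 562 CPM with shMPZL3 #2. All knockdown libraries were above all controls by a small margin. The log2 fold change was 0.31 ± 0.10 with shMPZL3 #1 (SE; edgeR, adjusted p = 0.0226), 0.28 ± 0.10 with shMPZL3 #2 (adjusted p = 0.0671) and 0.29 ± 0.09 grouped (adjusted p = 0.0504), and the shRNAs differed by -0.03 (95% interval -0.24 to 0.17; adjusted p = 0.853). The call for shMPZL3 #1 did not hold when scr control replicate 1 was left out (adjusted p = 0.105), nor without scr control replicate 2 (adjusted p = 0.0661) or shMPZL3 #1 replicate 3 (adjusted p = 0.0771), and the grouped value passed with DESeq2 (adjusted p = 0.0127). The value for shMPZL3 #2 passed with DESeq2 (adjusted p = 0.0345) and with edgeR fitted to the 2 groups alone (adjusted p = 0.0277), to protein-coding genes or with a minimum of 10 counts (adjusted p = 0.0488 each). LAMB1 shares 70 exon bases with DLD on the opposite strand, which had 56009 counts against 93896.

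LAMC1 (ENSG00000135862, chromosome 1, 183023460 to 183145592, plus strand), the gamma chain shared by most laminins, was the steadiest of the 9. It had 659, 711 and 717 CPM in scr control, 770, 861 and 838 CPM with shMPZL3 #1, and 733, 753 and 745 CPM with shMPZL3 #2. The 3 groups did not overlap, with shMPZL3 #2 between the others. The log2 fold change was 0.24 ± 0.09 with shMPZL3 #1 (SE; edgeR, adjusted p = 0.0479), 0.10 ± 0.09 with shMPZL3 #2 (adjusted p = 0.514) and 0.17 ± 0.09 grouped (adjusted p = 0.227). The call for shMPZL3 #1 was lost with 8 of the 9 libraries left out singly, up to an adjusted p of 0.182, and it was lost without the filter on low counts (adjusted p = 0.115).

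**Figure D3:**
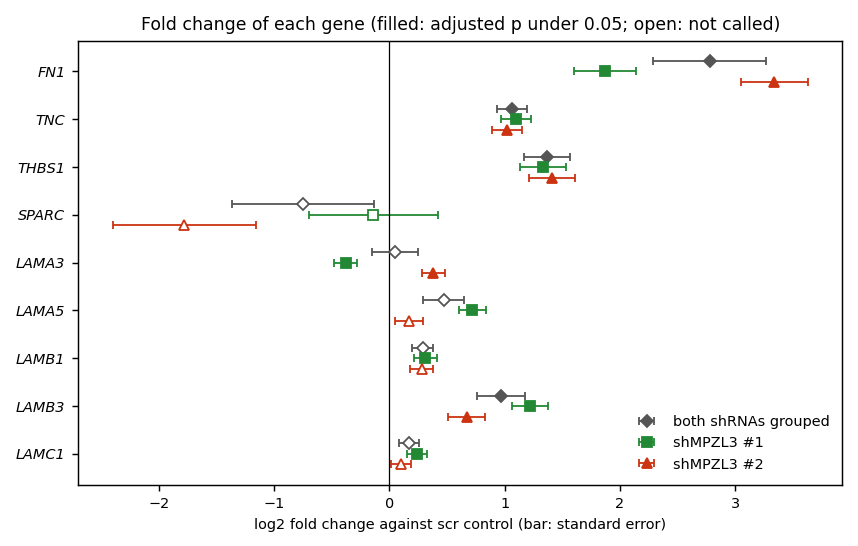
The log2 fold change against scr control is drawn for the 9 genes, with the SE as a bar, for both shRNAs grouped (diamonds), shMPZL3 #1 (squares) and shMPZL3 #2 (triangles); filled symbols are called at an adjusted p under 0.05 (edgeR) and open ones are not. FN1 is the farthest to the right in all 3 comparisons, and LAMA3 is the gene with calls on both sides of 0.

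Counted over the 9 genes, 4 were called higher (FN1, TNC, THBS1 and LAMB3) and 0 lower in the grouped comparison, where 9.36% of all genes tested were called higher and 6.4% lower. The 0 includes no gene at an unadjusted p under 0.05 and none with DESeq2. With shMPZL3 #1, 7 were called higher and 1, LAMA3, lower, against 16.8% and 15.3% of all genes. With shMPZL3 #2, 5 were called higher (the grouped 4 and LAMA3) and 0 lower, against 9.36% and 5.8%, and SPARC was the gene at an unadjusted p under 0.05 and the 1 called lower by DESeq2. Between the shRNAs, 2 were higher with shMPZL3 #2 (FN1 and LAMA3) and 2 lower (LAMA5 and LAMB3), against 7.56% and 7.56%. The 6 knockdown libraries all lay above the 3 controls for 6 genes (FN1, TNC, THBS1, LAMB1, LAMB3 and LAMC1), as for 11.8% of all genes, and all below for 0, as for 11%. By the exact permutation test of mean log2 CPM (two-sided), FN1, TNC, THBS1, LAMB1 and LAMB3 had p = 0.0119, the smallest that 84 splits allow, and LAMC1 had p = 0.0357; with 3 libraries against 3 this test cannot go below 0.1. The median log2 fold change of the 9 was 0.47 grouped, 0.72 with shMPZL3 #1 and 0.38 with shMPZL3 #2, beside 0.02, 0.01 and 0 over all genes. The single-shRNA comparisons share their control libraries.

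Levels of different genes were compared per kilobase of gene length. In scr control LAMA3 stood highest of the 9 (122 ± 5.99 CPM per kilobase, SD, n = 3), before LAMC1 (82.8 ± 3.8), LAMB1 (53.6 ± 2.83), THBS1 (45.6 ± 14.4), LAMA5 (40.0 ± 1.57), LAMB3 (28.1 ± 6.61), TNC (5.13 ± 0.91), FN1 (2.51 ± 0.599) and SPARC (0.266 ± 0.113). THBS1 overlapped in range with its neighbours LAMB1 and LAMA5 and with LAMB3, and the other neighbours in this order did not overlap. THBS1 moved ahead of LAMB1 and LAMC1 in both knockdown groups, and ahead of LAMA3 with shMPZL3 #1, where LAMC1 also had the higher mean. THBS1 reached 114 ± 26.9 with shMPZL3 #1, the highest mean of the 9 and overlapping LAMC1 (97.9 ± 5.62) and LAMA3 (93.6 ± 4.37), and 122 ± 11.8 with shMPZL3 #2, second to LAMA3 (158 ± 21.2) with ranges that touch at 134 to 135. FN1 came to 9.21 ± 3.93 and 25.5 ± 7.64, in the second case above TNC (10.4 ± 1.52) and below every laminin chain among the 9. The deposited length of FN1, 17315 bases, is that of all its exons joined. Over its longest coding transcript of 8905 bases the control level was 4.89 in place of 2.51, a mean below that of TNC on the same footing (6.47). The control ranges overlapped, at 3.64 to 5.94 for FN1 and 5.34 to 7.63 for TNC. Over these transcripts FN1 had the higher mean with shMPZL3 #1, at 17.9 ± 7.65 against 13.9 ± 0.625 for TNC with overlapping ranges. With shMPZL3 #2 it came to 49.5 ± 14.9, a mean above that of LAMB3 (48.5 ± 3.74), also with overlapping ranges, so its place below the laminin chains depends on the length used.

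The 9 genes were compared over the libraries by the distance between their profiles, the root mean square difference of log2 CPM after each gene was set to 0 at its control mean. The closest pair was LAMB1 and LAMC1 (0.12), followed by TNC and LAMB3 (0.28) and by LAMA5 and LAMB1 (0.28). Among the protein-coding genes nearest to FN1, of 11833, were IFITM1 (0.31), TGFBI (0.32), IFIT1 (0.35) and C15orf48 (0.35), where the median distance was 2.24. IFITM1 and IFIT1 are interferon-induced genes, and TGFBI encodes a matrix protein that binds integrins. Relative to its control mean, TGFBI stood at 0.55, 1.95 and 2.63 in the shMPZL3 #1 libraries where FN1 stood at 1.05, 1.96 and 2.39, and at 2.42, 3.39 and 3.73 in the shMPZL3 #2 libraries where FN1 stood at 2.77, 3.50 and 3.67. TGFBI had 10 to 40 counts in scr control, against 500 to 988 for FN1. The nearest genes to the others were MSRB2 for TNC (0.13), SH3TC2 for THBS1 (0.14), ID2 for SPARC (0.71), TPRG1L for LAMA3 (0.10), CHPF2 for LAMA5 (0.10), CAPN2 for LAMB1 (0.04), PPM1H for LAMB3 (0.11) and CTNND1 for LAMC1 (0.03). The distances are small where a gene changed little, and all genes share the same libraries, so they are a description.

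**Figure D4:**
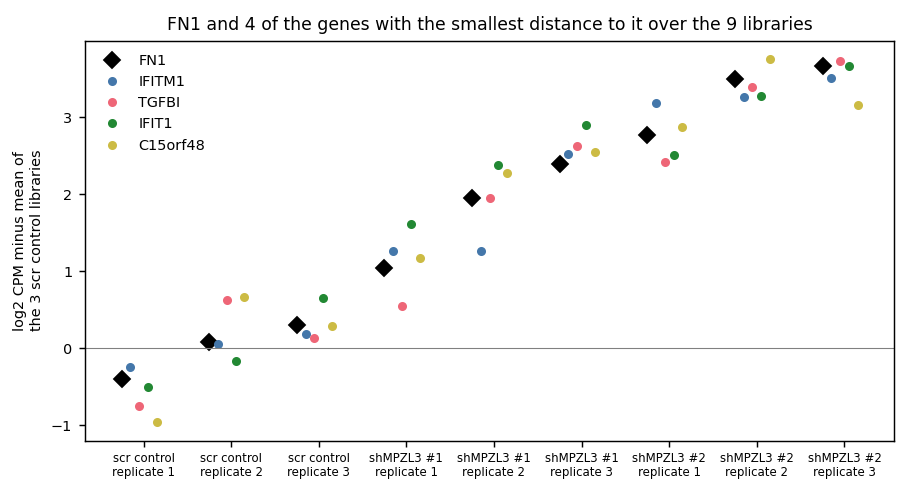
FN1 (black diamonds) and 4 of the genes nearest to it (circles) are plotted in each of the 9 libraries as log2 CPM minus the gene's mean over the 3 scr control libraries. All 5 genes lie within 1 of 0 in scr control. The shMPZL3 #1 values run from 0.55 to 2.90 and those of shMPZL3 #2 from 2.42 to 3.76.

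Other genes of the same matrix were read from lists of known function, and their counts are to be read against the shares of all genes called that are given above (9.36% higher and 6.4% lower grouped, 16.8% and 15.3% with shMPZL3 #1, 9.36% and 5.8% with shMPZL3 #2). Of the 14 other matricellular genes that passed the filter, of 21 listed, 6 were called higher and 0 lower grouped (median log2 fold change 0.54), 5 higher and 0 lower with shMPZL3 #1, and 6 higher and 1 lower with shMPZL3 #2. In the comparisons with 0 lower, 0 were lower at an unadjusted p under 0.05 in edgeR and 0 with DESeq2. TGFBI rose by 2.71 ± 0.61 grouped (log2, SE, edgeR, adjusted p = 0.0119), and by 1.36 ± 0.40 more with shMPZL3 #2 than with shMPZL3 #1 (adjusted p = 0.0282). Its shMPZL3 #1 libraries overlapped control: relative to the control mean, shMPZL3 #1 replicate 1 stood at 0.55 and scr control replicate 2 at 0.63. NOV, a CCN family protein also known as CCN3, rose by 1.46 ± 0.22 (adjusted p = 0.00113), with means of 15.2 ± 2.73, 46.9 ± 15.3 and 37.4 ± 4.59 CPM in scr control, shMPZL3 #1 and shMPZL3 #2 (SD, n = 3 each). The 19 partners in the fibronectin matrix, such as fibulins, fibrillins, LTBPs and lysyl oxidases, gave 6 higher and 1 lower grouped (median 0.40), 7 and 4 with shMPZL3 #1, and 8 and 1 with shMPZL3 #2. The lower counts grouped and with shMPZL3 #2, 5.26% of the list each, were near the share of all genes. Of these partners, VCAN, which encodes the proteoglycan versican, rose by 1.16 ± 0.21 grouped (adjusted p = 0.00381), from 104 ± 32.9 CPM to 216 ± 53.5 and 246 ± 36.3 CPM. VCAN, like FN1 and TNC, was among the EMT genes chosen by the study on these libraries and those of OVCA433, as were several other genes of these lists.

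The 13 partners of laminin in the basement membrane that were tested had calls in both directions: 2 were higher (HSPG2 and AGRN) and 1 lower (BCAM) grouped (median 0.24), 6 and 3 with shMPZL3 #1, and 5 and 2 with shMPZL3 #2. Between the shRNAs, 4 were higher and 3 lower with shMPZL3 #2, against 7.56% of all genes in each direction. Grouped, that is 15.4% and 7.69% of the list, and the lower share was near that of all genes. The nidogens, which link laminin to collagen IV, are named here for that role and after their values were seen. NID1 had a log2 fold change of -1.47 ± 0.32 with shMPZL3 #1 (SE; edgeR, adjusted p = 0.00212) and -0.09 ± 0.29 with shMPZL3 #2 (adjusted p = 0.877), and NID2 of -0.73 ± 0.20 (adjusted p = 0.0107) and 0.81 ± 0.19 (adjusted p = 0.00904). NID1 and NID2 differed between the shRNAs by 1.38 ± 0.31 and 1.54 ± 0.20 (adjusted p = 0.0069 and 8.29e-05), higher with shMPZL3 #2. NID1 had only 17 to 27 counts in the shMPZL3 #1 libraries, and the NID2 libraries of shMPZL3 #1 overlapped control. Of 6 laminin chains outside the 9 genes, 0 were called in either direction grouped in edgeR (0 higher and 2 lower at an unadjusted p under 0.05, and 0 and 1 with DESeq2). With shMPZL3 #1, 1 was higher and 1 lower, and with shMPZL3 #2, 0 were higher (0 at an unadjusted p under 0.05 in edgeR and 0 with DESeq2) and 1 was lower (median -0.12 grouped).

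Of the 18 fibronectin and laminin receptors tested, of 21 listed, 7 were higher and 1 lower grouped (median 0.11), 8 and 3 with shMPZL3 #1, and 5 and 3 with shMPZL3 #2. The share lower was near that of all genes grouped (5.56%) and with shMPZL3 #1 (16.7%). SDC4, the syndecan that joins integrins at fibronectin adhesions, rose by 1.04 ± 0.21 grouped (log2, SE; edgeR, adjusted p = 0.00656), with means of 498 ± 108, 797 ± 101 and 1250 ± 38.2 CPM in scr control, shMPZL3 #1 and shMPZL3 #2 (SD, n = 3 each). It differed between the shRNAs by 0.65 ± 0.14 (adjusted p = 0.00397), in the direction of FN1. The receptors as a list did not share that direction: of the 18, 3 were called higher and 5 lower with shMPZL3 #2 against shMPZL3 #1. Of all genes, 7.56% were called in each direction. Integrin subunits and SDC2 are named after their values were seen. ITGA5, the alpha chain of the main fibronectin receptor and also an EMT gene of the study, rose by 0.97 ± 0.20 grouped (adjusted p = 0.00777) with a difference between shRNAs of -0.17 ± 0.20 (adjusted p = 0.618), and its partner ITGB1 had 0.15 ± 0.11 (adjusted p = 0.408). Of the laminin-332 receptors, ITGA3 rose by 0.57 ± 0.11 (adjusted p = 0.00492) and ITGB4 by 0.46 ± 0.12 (adjusted p = 0.0258), while ITGA6 had 0.02 ± 0.15 (adjusted p = 0.949). Calls in the other direction were also made. The syndecan gene SDC2 fell grouped by 0.34 (SE 0.11, adjusted p = 0.0448), ITGB8 fell by 0.85 and ITGA7 by 1.25 with shMPZL3 #1 (SE 0.11 and 0.25; adjusted p = 4.21e-05 and 0.00126), and ITGAV rose by 0.46 ± 0.13 with shMPZL3 #1 (adjusted p = 0.0151) and fell by 0.43 with shMPZL3 #2 (SE 0.13, adjusted p = 0.0415).

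**Figure D5:**
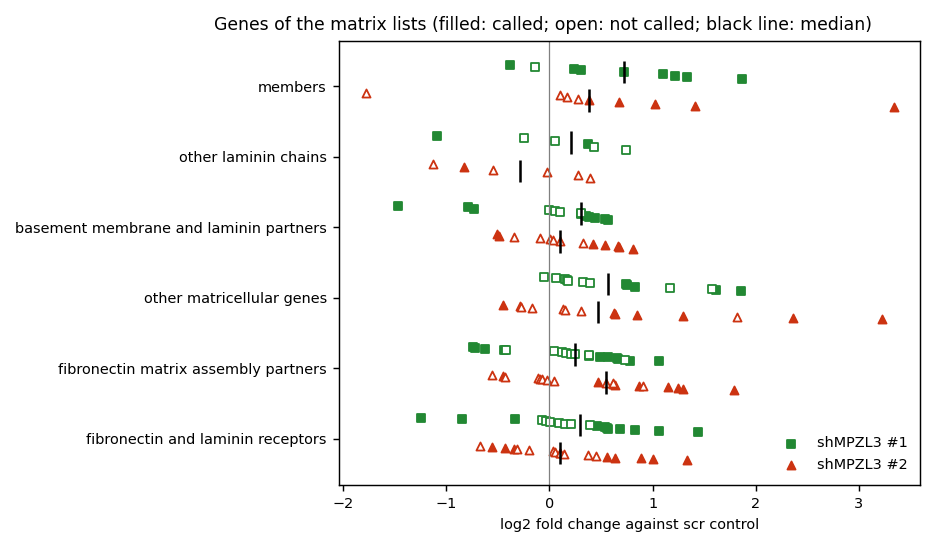
Each symbol is a tested gene of the list named at the left, at its log2 fold change against scr control for shMPZL3 #1 (squares) and shMPZL3 #2 (triangles), filled where called at an adjusted p under 0.05 (edgeR); the black line is the median of the list. The 9 member genes have medians of 0.72 and 0.38, and the triangles at 3.34 and 3.22 are FN1 and TGFBI.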

How the data were processed

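OVCAR4 RNA was poly-A selected and sequenced from non-directional libraries. The submitters' processing notes name HISAT2 2.0.5, featureCounts 1.5.0-p3 and hg38, and the authors deposited raw counts per gene without normalization or pooling. All 58735 genes matched GENCODE v29 by identifier, position and name. The members and lists were chosen with earlier results of these data known.

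Counts were analysed with edgeR 4.0.16 in R 4.3.3: filterByExpr, TMM (factors 0.983 to 1.03), quasi-likelihood F-tests (two-sided) and Benjamini-Hochberg adjustment over 16928 genes, at 0.05. The grouped comparison used 2 groups, the others 1 fit of 3 groups. The SE is the log2 fold change divided by the root of F. Log2 CPM used a prior count of 2. Levels per kilobase used the deposited gene length. DESeq2 1.42.0, RLE and upper-quartile scaling, other filters, other fits, a fold threshold, a block for the replicate number and leaving out each library were alternatives, and the fits were checked on simulated counts. Figures were drawn with Python 3.11.15.

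From the lists, genes were named that were called in 1 direction for both shRNAs and changed by 1 or more grouped (log2, either sign), at most 5 a list. Profile neighbours were taken from the nearest 5 genes for FN1 and the nearest 1 for the others, among protein-coding genes whose log2 CPM averaged 1 or more. Some items that these rules name are not reported here. Low counts limit the precision for SPARC. Same-numbered replicates were not paired in the main fits. Their deviations from the group means correlated by -0.001 to 0.218, and those of differently numbered libraries of different groups by -0.147 to 0.067. The replicate number was used as a block in an alternative fit.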

Additional observations from a re-analysis of the deposited data

Results flagged for a closer look

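Each shRNA was compared with the same scr control libraries, and 4 of the 9 genes differed between the shRNAs by the test of that difference itself (edgeR, shMPZL3 #2 against shMPZL3 #1, all 9 libraries). Of all genes tested, 7.56% were called higher and 7.56% lower in this comparison. FN1 was higher with shMPZL3 #2 by 1.47 on the log2 scale (SE 0.26, adjusted p = 0.00135), with all 3 shMPZL3 #2 libraries above all 3 of shMPZL3 #1, and stayed between 1.17 and 1.79 with any library left out. LAMA3 was higher by 0.76 (SE 0.10, adjusted p = 0.000156), again in 3 of 3 libraries, between 0.68 and 0.85. LAMA5 was lower, at -0.55 (SE 0.12, adjusted p = 0.00559), in 3 of 3 libraries, between -0.63 and -0.41. LAMB3 was lower, at -0.55 (SE 0.16, adjusted p = 0.0232), in 3 of 3 libraries, between -0.66 and -0.38, and this call rests on single libraries as given above. MPZL3 itself was higher with shMPZL3 #2 by 1.28 (SE 0.16, adjusted p = 5.72e-05). The part of the extent of knockdown, or of each hairpin's sequence, in these differences was not tested.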

How the results depend on the processing

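The calls for FN1, TNC and THBS1 against control were kept under every alternative run, with grouped values of 2.54 to 2.99, 0.94 to 1.20 and 1.12 to 1.53 when 1 library was left out. Of 934 recomputed values, 853 were labelled as kept, 31 fell short of the threshold, 21 passed it newly, 9 changed sign and 20 moved. For single genes, kept means the same direction and side of the threshold. Counts, medians and levels were labelled as kept when near the main value, for medians within the replicate SD of 0.14 (log2). Counts of the 9 genes called higher were so labelled at 3 to 5 grouped, 5 to 7 with shMPZL3 #1 and 4 to 6 with shMPZL3 #2, with 1 library left out. With at least 10 counts in every library SPARC is no longer tested, and the median of the genes was 0.75 grouped, 0.95 for shMPZL3 #1 and 0.54 for shMPZL3 #2. Where a log2 fold change of 1 in size was also required, LAMB3 (0.97) lost its grouped call, which left 3 genes higher. At this limit 4 genes were higher and 0 lower for shMPZL3 #1, 3 higher for shMPZL3 #2, and 1 higher and 0 lower between the shRNAs. Of all 16928 genes tested, 594 were then higher and 87 lower grouped, and 1006 and 236 with shMPZL3 #1. With shMPZL3 #2 these were 572 and 114, and between the shRNAs 221 and 318. DESeq2, and edgeR without a filter, called 1 gene lower with shMPZL3 #2 (SPARC), and DESeq2 called 1 other laminin chain lower grouped. Over the longest coding transcript, control levels per kilobase were 4.89 for FN1, 168 for LAMA3, 50.0 for LAMA5, 75.7 for LAMB1, 88.2 for LAMC1 and 6.47 for TNC, an alternative chosen after seeing the data.

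With single libraries left out, the count lower between the shRNAs was 1 to 2. Values that changed sign were near 0 and not called: LAMA3 grouped (-0.05 to 0.15), SPARC with shMPZL3 #1 (-0.67 to 0.12), and THBS1 (-0.08 to 0.27) and LAMB1 (-0.10 to 0.01) between the shRNAs. The cause of these changes was not tested. With the replicate number as a block, LAMB1 passed the threshold grouped (0.29, adjusted p = 0.0411) and for shMPZL3 #2 (0.27, adjusted p = 0.0175), and no other call changed. Over all genes, the block changed the calls with shMPZL3 #1 from 2838 higher and 2585 lower to 3251 and 3104. With shMPZL3 #2 they went from 1585 and 982 to 2083 and 1597, and between the shRNAs from 1279 and 1280 to 2015 and 1808. Grouped, they went from 1584 and 1083 to 1434 and 990. The labels do not say whether the numbers pair the libraries, and FN1, LAMB1 and LAMC1 were lowest in replicate 1 of each group. Over the 9 genes and 3 groups, replicate 1 was above its group mean in 6 of 27 values, replicate 2 in 18 and replicate 3 in 23. Leaving out 1 of 3 libraries assumes that the remaining pair varies like the other groups.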
